A study of Mus musculus with 10 samples.

Results

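Immune checkpoint genes are described here in mouse tumors of the melanoma line B16-F10, which derives from the C57BL/6 strain. The set comprised 9 genes of the 17737 listed, chosen by name: the inhibitory receptor genes Pdcd1, Ctla4, Lag3, Havcr2, Tigit, Btla and Cd160, and the PD-1 ligand genes Cd274 and Pdcd1lg2. All 9 were found by Ensembl identifier, and all 9 passed the filter on low counts. Cd160 passed it only through its WT tumors, the group where it is high. The implanted cells overexpressed interleukin-18 (IL-18), either wild type (WT tumors) or with alanine in place of aspartate at position 69 (D69A tumors). Cells were placed under the skin of C57BL/6 mice, and tumors were taken for bulk RNA sequencing on day 11, with 5 tumors per group (WT tumors 2 to 6 and D69A tumors 1 to 5). The vector, the age of the mice, and whether each line was 1 clone or a pool were not stated in the labels. Nothing in the labels ties every tumor to a separate animal, and p-values below reflect variation among these samples only.

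Checkpoint receptors are surface proteins of T cells, NK cells and some myeloid and B cells that dampen activation when they meet their ligands. PD-1 and CTLA-4 appear on T cells after stimulation through the T cell receptor, and several of these receptors persist together on T cells exposed to antigen for a long time, a state called exhaustion. PD-L1, the product of Cd274, can be made by tumor cells as well as by leukocytes, and interferon-gamma, which IL-18 induces in NK and T cells, is its best known inducer.

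Total counts ranged from 25904345 to 37578722 per tumor. Il18 itself did not pass the threshold (log2 fold change -0.12, adjusted p = 0.266, edgeR), and its gene count does not tell which form a tumor carried. The melanocyte markers Pmel, Tyr, Tyrp1, Dct and Mlana, summed, lay between 15400 and 18600 CPM (read counts normalised for sequencing depth) in WT tumors and between 22400 and 28800 CPM in D69A tumors, which checks the labelled melanoma origin. Tumors WT 3, WT 4 and D69A 1 stood apart in skeletal muscle markers, with summed levels of 969.8, 1431 and 500.4 CPM against 3.53 to 104.1 CPM in the other tumors. Every value below is a level in whole tissue, where fewer cells of a type and less RNA per cell cannot be told apart.

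All 9 checkpoint genes were lower in D69A tumors and all 9 passed the threshold of an adjusted p of 0.05 (quasi-likelihood test of edgeR, Benjamini-Hochberg adjustment over 13798 genes, named edgeR below). Over all tested genes, 24.7% were called lower, 18.8% higher and 43.5% in either direction. The median log2 fold change of the 9 was -2.64, against 0.0024 over all tested genes. Decreases ran from 3.1-fold for Cd274 to 7.59-fold for Tigit. By at least 4-fold, 8 of the 9 fell, a size of decrease that 8.02% of all tested genes reached. In each of the 9, every D69A tumor lay below every WT tumor, which held for 17.4% of all tested genes. Each of these counts includes Cd160, which was tested only because of its WT levels. WT tumor 2 was the lowest of its group and D69A tumor 1 the highest of its group in all 9 genes.

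**Figure D1:**
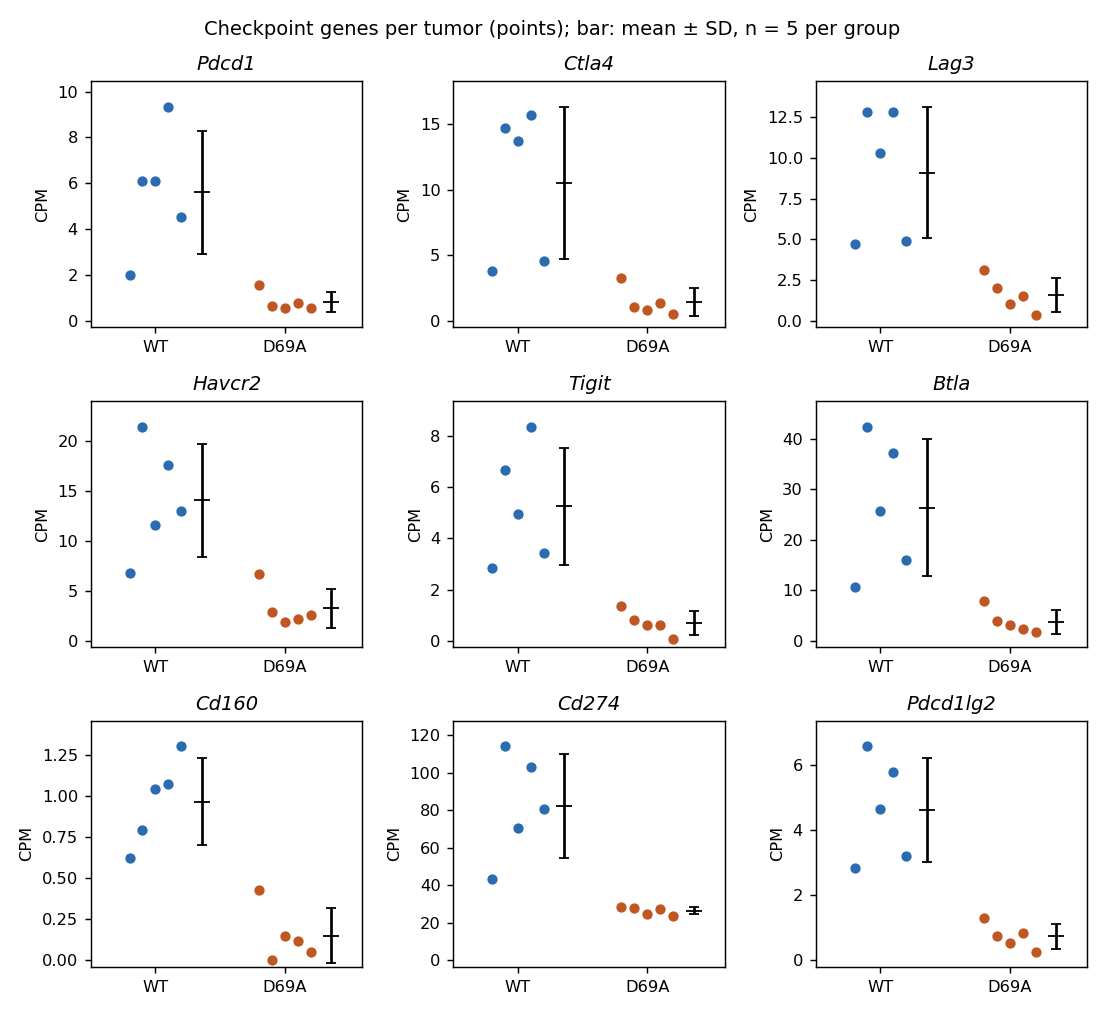
Level of each checkpoint gene in CPM (y axis, linear, 1 panel per gene) in every tumor, with WT tumors 2 to 6 in blue and D69A tumors 1 to 5 in orange from left to right, and mean ± SD (n = 5) as black bars. In each panel the 5 D69A points lie below the 5 WT points, and Cd274 in D69A tumors has a narrow spread, from 23.9 to 28.3 CPM.

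The PD-1 axis consists of the receptor PD-1 and its ligands PD-L1 and PD-L2. Cd274 (ENSMUSG00000016496, chromosome 19, 29367455 to 29388095 in mm10, plus strand) encodes PD-L1. It stood at 43.2, 114.0, 70.4, 103.0 and 80.8 CPM in WT tumors 2 to 6 and at 28.3, 27.9, 25.0, 27.6 and 23.9 CPM in D69A tumors 1 to 5. The WT tumors were spread widely, whereas the D69A tumors were close together. The coefficient of variation (SD as a percentage of the mean) was 33.9% in WT and 7.41% in D69A tumors. The means were 82.2 ± 27.9 and 26.6 ± 1.97 CPM (SD, n = 5 each). Cd274 fell by 1.63 on the log2 scale (SE 0.22), or 3.1-fold with a 95% interval from 2.23 to 4.3, and the adjusted p was 0.000549 by edgeR. Of its exon sequence, 14.1% lies opposite exons of the gene AC119228.1, and without strand in the counting their reads cannot be told apart.

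Pdcd1lg2 (ENSMUSG00000016498, chromosome 19, 29410919 to 29471161 in mm10, plus strand) is its neighbor on the chromosome and encodes PD-L2, a ligand found mainly on dendritic cells and macrophages. It stood at 2.84, 6.56, 4.65, 5.76 and 3.21 CPM in WT tumors 2 to 6 and at 1.31, 0.752, 0.541, 0.828 and 0.271 CPM in D69A tumors 1 to 5. The lowest WT tumor was 2.17 times the highest D69A tumor, the widest such gap among the 9 genes. The decrease was 6.19-fold, with a log2 fold change of -2.63 (SE 0.39) and an adjusted p of 0.00084 by edgeR.

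Pdcd1 (ENSMUSG00000026285, chromosome 1, 94038305 to 94052553 in mm10, minus strand) encodes PD-1. It stood at 1.99, 6.09, 6.11, 9.34 and 4.51 CPM in WT tumors 2 to 6. In D69A tumors 1 to 5 it stood at 1.55, 0.64, 0.541, 0.799 and 0.57 CPM. WT tumor 2 and D69A tumor 1 came near each other, and the other D69A tumors were all below 1 CPM. The decrease was 6.8-fold, with a 95% interval from 3.53 to 13.1 and an adjusted p of 0.000932 by edgeR.

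The 250 bases before the RefSeq start sites of these 3 genes are shown because they are the only windows of the set that held a match to the core of the interferon regulatory factor motif. Matches are in capitals, and each sequence is read 5′ to 3′ on the strand of the gene (RefSeq, GRCm38.p6, the same build as mm10). The windows are chr19:29367188-29367437 for Cd274, chr19:29410669-29410918 for Pdcd1lg2, both on the plus strand, and chr1:94052554-94052803 on the minus strand for Pdcd1.
Cd274: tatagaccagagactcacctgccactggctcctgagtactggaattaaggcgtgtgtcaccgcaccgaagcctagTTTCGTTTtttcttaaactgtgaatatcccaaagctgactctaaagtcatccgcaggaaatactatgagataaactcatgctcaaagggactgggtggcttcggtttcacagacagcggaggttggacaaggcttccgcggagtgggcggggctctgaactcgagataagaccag
Pdcd1lg2: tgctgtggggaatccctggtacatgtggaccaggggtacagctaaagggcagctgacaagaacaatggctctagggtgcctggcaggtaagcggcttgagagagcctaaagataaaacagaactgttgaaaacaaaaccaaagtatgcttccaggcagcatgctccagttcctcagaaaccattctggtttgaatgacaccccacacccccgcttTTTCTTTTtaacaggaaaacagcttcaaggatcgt
Pdcd1: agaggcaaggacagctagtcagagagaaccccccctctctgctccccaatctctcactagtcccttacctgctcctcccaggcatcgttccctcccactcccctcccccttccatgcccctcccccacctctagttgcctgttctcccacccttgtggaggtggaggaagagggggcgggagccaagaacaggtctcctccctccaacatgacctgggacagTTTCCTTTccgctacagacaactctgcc

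The letters searched were AANNGAAA on both strands, and the capitals show the match on the reverse strand. The match begins 175 bases before the start of Cd274, 35 before that of Pdcd1lg2 and 28 before that of Pdcd1. Windows with a match came to 3 of the 8 genes that had a window, against 23.9% of 32851 RefSeq windows of the same length (250 bases before and 50 after a start). In Pdcd1 it overlaps a match to GGAAA, an NFAT core found in 61.3% of all windows. The interferon-stimulated response element, a longer motif that contains the core, was in none of the 8 genes' windows and in 3.44% of all windows. The gamma-activated sequence TTCNNNGAA was in 1 of the 8, in the second of the windows of Cd160, and in 8.3% of all windows. A match describes letters and not binding. No window for Lag3 was used here.

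Ctla4 and Tigit encode receptors that compete with the activating receptors CD28 and CD226 for shared ligands. Ctla4 (ENSMUSG00000026011, chromosome 1, 60887000 to 60915832 in mm10, plus strand) stood at 3.77, 14.7, 13.7, 15.7 and 4.59 CPM in WT tumors 2 to 6. In D69A tumors 1 to 5 it stood at 3.23, 1.09, 0.841, 1.36 and 0.543 CPM. The WT tumors fell into a high set (tumors 3, 4 and 5) and a low set (tumors 2 and 6), and D69A tumor 1 came close to the latter. The decrease was 7.4-fold, with a log2 fold change of -2.89 (SE 0.56) and an adjusted p of 0.00219 by edgeR.

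Tigit (ENSMUSG00000071552, chromosome 16, 43648867 to 43664146 in mm10, minus strand) stood at 2.84, 6.69, 4.97, 8.38 and 3.44 CPM in WT tumors 2 to 6. In D69A tumors 1 to 5 it stood at 1.34, 0.807, 0.631, 0.621 and 0.0543 CPM, the last from 2 counts. Tigit had the largest fitted decrease of the 9 genes, 7.59-fold with a 95% interval from 3.21 to 18.0 and an adjusted p of 0.00221 by edgeR. The intervals of the 9 genes overlap, as the plot of fitted fold changes shows. All genes come from the same tumors, so these intervals do not test whether 2 genes differ in fold change. The order of the 9 was not tested, and ratios within tumors are given below for 6 pairs.

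Lag3 and Havcr2 encode further inhibitory receptors of T cells. LAG-3 is a CD4-related receptor that binds MHC class II, and TIM-3, the product of Havcr2, is also made by dendritic cells and macrophages. Lag3 (ENSMUSG00000030124, chromosome 6, 124904361 to 124911705 in mm10, minus strand) stood at 4.75, 12.8, 10.3, 12.8 and 4.9 CPM in WT tumors 2 to 6 and at 3.13, 2.0, 1.02, 1.51 and 0.38 CPM in D69A tumors 1 to 5. WT tumors 2 and 6 were again the low ones of their group. The decrease was 5.65-fold (log2 fold change -2.50, SE 0.50, adjusted p = 0.00268 by edgeR).

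Havcr2 (ENSMUSG00000020399, chromosome 11, 46454935 to 46481255 in mm10, plus strand) stood at 6.79, 21.5, 11.6, 17.6 and 13 CPM in WT tumors 2 to 6. In D69A tumors 1 to 5 it stood at 6.71, 2.92, 1.92, 2.16 and 2.58 CPM. D69A tumor 1 all but reached the lowest WT tumor, with a ratio of 1.01 between them, while the other D69A tumors lay well below. The decrease was 4.31-fold (log2 fold change -2.11, SE 0.39, adjusted p = 0.00188 by edgeR), the second smallest of the set after Cd274.

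Btla and Cd160 encode receptors that share the ligand HVEM, the product of Tnfrsf14. Btla (ENSMUSG00000052013, chromosome 16, 45224315 to 45257670 in mm10, plus strand), found on B cells, T cells and dendritic cells, was the receptor gene with the highest level per length in WT tumors. It stood at 10.6, 42.4, 25.7, 37.2 and 15.9 CPM in WT tumors 2 to 6 and at 7.78, 3.87, 3.12, 2.4 and 1.66 CPM in D69A tumors 1 to 5. The groups did not overlap, and the decrease was 6.98-fold (log2 fold change -2.80, SE 0.48, adjusted p = 0.00128 by edgeR). Of the B cell markers, Cd79a, Ms4a1 and Cr2 were too low to be tested, Cd79b fell 4.02-fold and Pax5 did not pass the threshold (log2 fold change -0.85, adjusted p = 0.26, edgeR).

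Cd160 (ENSMUSG00000038304, chromosome 3, 96798763 to 96829351 in mm10, minus strand), a receptor gene of NK cells and cytotoxic T cells, had the lowest level per length of the set. It stood at 0.62, 0.792, 1.04, 1.07 and 1.3 CPM in WT tumors 2 to 6, from 24 to 40 counts. In D69A tumors 1 to 5 it stood at 0.428, 0.0, 0.15, 0.118 and 0.0543 CPM, from 16, 0, 5, 4 and 2 counts. It passed the filter on low counts through the WT tumors, so its being tested is not independent of its decrease. The count of 0 in D69A tumor 2 allows a level of up to about 0.0825 CPM, computed from total counts without the scaling of the other values. The fitted decrease was 6.23-fold, with an interval from 2.37 to 16.4 and an adjusted p of 0.00697 by edgeR. Without D69A tumor 1 the log2 fold change went from -2.64 to -3.52. Exons of Pdzk1 lie opposite 2.57% of its exon sequence.

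**Figure D2:**
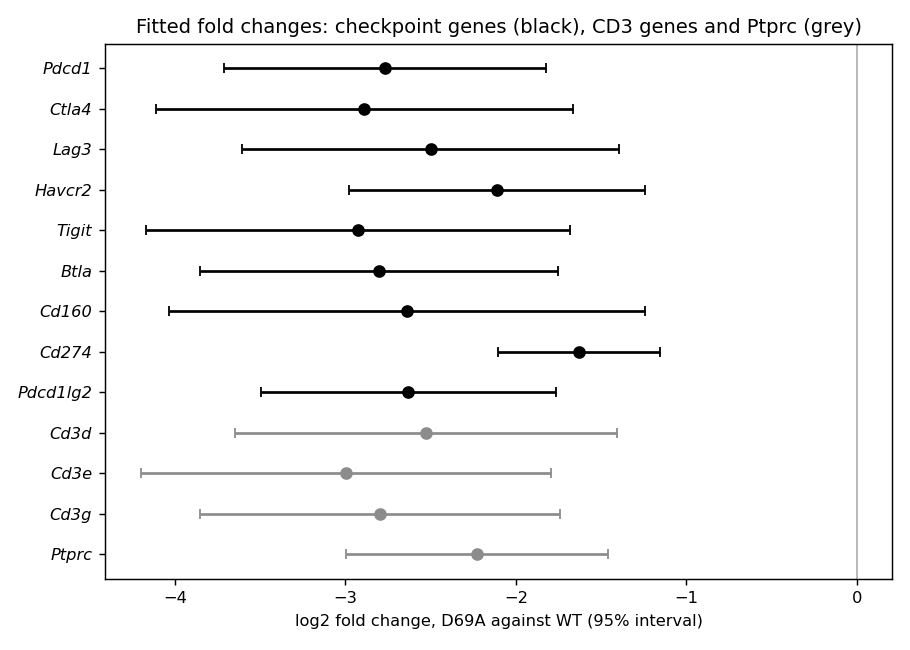
Fitted log2 fold change of D69A against WT tumors (x axis) with 95% intervals for the 9 checkpoint genes in black and for Cd3d, Cd3e, Cd3g and Ptprc in grey. All intervals lie below 0, and Cd274 has the value nearest to 0, at -1.63.

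Levels between genes were compared as CPM per kilobase of exon sequence. In WT tumors Cd274 led with 22.7 ± 7.69, followed by Btla (7.75 ± 3.99), Tigit (5.73 ± 2.5), Havcr2 (5.18 ± 2.08), Ctla4 (4.5 ± 2.5), Lag3 (4.32 ± 1.92), Pdcd1 (2.91 ± 1.39) and Pdcd1lg2 (2.35 ± 0.814), with Cd160 last at 0.365 ± 0.0997 CPM per kilobase (SD, n = 5). Each neighbor in this order overlapped the next in range apart from Pdcd1lg2 and Cd160. Within tumors, Cd274 was above Btla and Btla above Tigit in 5 of 5 WT tumors, whereas Tigit, Havcr2, Ctla4 and Lag3 changed places between tumors. In D69A tumors Cd274 stood at 7.33 ± 0.543 CPM per kilobase and Havcr2 came second at 1.2 ± 0.723, with no overlap between them. The ranges of all further neighbors in D69A tumors overlapped, from Havcr2 down to Cd160 at 0.0568 ± 0.0627 CPM per kilobase.

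The decrease in the receptor genes was of the size seen in markers of T cells, and equally of NK cells, regulatory T cells and dendritic cells. The 3 CD3 genes, which encode invariant chains of the T cell receptor complex, fell by 2.53 (Cd3d), 3.0 (Cd3e) and 2.8 (Cd3g) on the log2 scale, and summed to 7.1 to 25.2 CPM in WT and 1.11 to 5.83 CPM in D69A tumors. All 9 T cell markers analysed fell (Trac, Trbc1 and Trbc2 were not analysed here), as did all 6 NK cell markers, all 4 regulatory T cell markers and all 6 dendritic cell markers, with medians of -2.66, -2.94, -2.69 and -2.70. Of 7 macrophage markers 5 fell, with a median of -1.61, and Cd68 and Mertk did not pass the threshold. The share called lower over all tested genes was 24.7%. Summed levels were 32.0 to 101.0 CPM in WT against 7.6 to 24.6 CPM in D69A tumors for T cell markers. They were 27.5 to 66.9 against 4.69 to 12.7 CPM for NK cell markers, 14.4 to 36.1 against 3.18 to 6.5 CPM for regulatory T cell markers, and 81.9 to 285.0 against 26.7 to 65.1 CPM for dendritic cell markers. Macrophage markers summed to 499.0 to 1100.0 against 361.0 to 512.0 CPM, so that D69A tumor 1 passed the lowest WT tumor. No marker of these lists was at 0 in all tumors. Their part in the checkpoint gene results was not tested.

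Relative to the summed CD3 genes, most receptor genes did not differ detectably between the groups. The CD3 sums rest on 275, 829, 686, 941 and 284 counts in WT tumors 2 to 6. In D69A tumors 1 to 5 they rest on 218, 63, 59, 61 and 41 counts, so the D69A ratios carry more counting error. Ctla4 stood at 0.423 to 0.752 CPM per CPM of CD3 genes in WT and at 0.475 to 0.754 in D69A tumors, and Btla at 1.41 to 1.87 against 1.33 to 2.21. Pdcd1 stood at 0.269 to 0.415 against 0.266 to 0.512. The groups overlapped in all 3, with log2 differences of 0.03 (Ctla4), 0.08 (Btla) and 0.25 (Pdcd1) and two-sided exact permutation p of 0.857, 0.675 and 0.286. The 95% intervals of the log2 difference from edgeR's fit with CD3 counts as the offset were wide, -1.02 to 0.93 for Ctla4, -0.92 to 1.07 for Btla and -0.84 to 1.17 for Pdcd1; that fit gave all genes 1 shared spread, so its intervals are not specific to a gene. Lag3, Tigit, Cd160 and Pdcd1lg2 gave exact permutation p of 0.389, 0.762, 0.579 and 0.286. These p-values are unadjusted, over 9 genes on each of 2 scales.

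Cd274 and Havcr2 were higher per CD3 transcript in D69A tumors by the exact test, but neither was called when scaled to all T cell markers in edgeR's fit (log2 difference 0.92 with adjusted p = 0.05 for Cd274, and 0.26 with adjusted p = 0.548 for Havcr2). Cd274 stood at 6.08, 5.04, 3.86, 4.08 and 7.44 CPM per CPM of CD3 genes in WT tumors 2 to 6 and at 4.86, 15.9, 14.1, 15.3 and 21.5 in D69A tumors 1 to 5. D69A tumor 1 lay within the WT range and the other D69A tumors above it. The highest ratio, in D69A tumor 5, rests on 41 CD3 counts. The log2 difference was 1.33 (exact permutation p = 0.0317, adjusted p = 0.0351 over all tested genes), and edgeR's fit gave 1.44 with an adjusted p of 0.0107. For Havcr2 the range went from 0.634 to 1.2 in WT and from 1.08 to 2.32 in D69A tumors (log2 difference 0.74, exact permutation p = 0.0238, adjusted p = 0.0267 over all tested genes), and edgeR's fit did not call it (adjusted p = 0.148). On this scale most of the transcriptome was higher in D69A tumors, so adjustment over all tested genes barely changed p. It gives little protection for 9 genes compared on 2 scales. By the exact test 91.2% of all tested genes were called higher and 0.029% lower, by edgeR's fit 89.8% and 0.087% (89.9% in either direction), and the median log2 difference over all genes was 2.89. Among the checkpoint genes 2 of 9 were called higher by the exact test and 1 of 9 by edgeR's fit. Each of the exact test's calls held in 6 of the 10 tests that left out 1 tumor. For Cd274 it was lost without D69A tumor 2, 3, 4 or 5 (adjusted p = 0.0527, 0.0522, 0.0526 and 0.0616, exact permutation) and for Havcr2 without WT tumor 2, 3, 4 or 5 (0.0518, 0.053, 0.0701 and 0.0616).

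**Figure D3:**
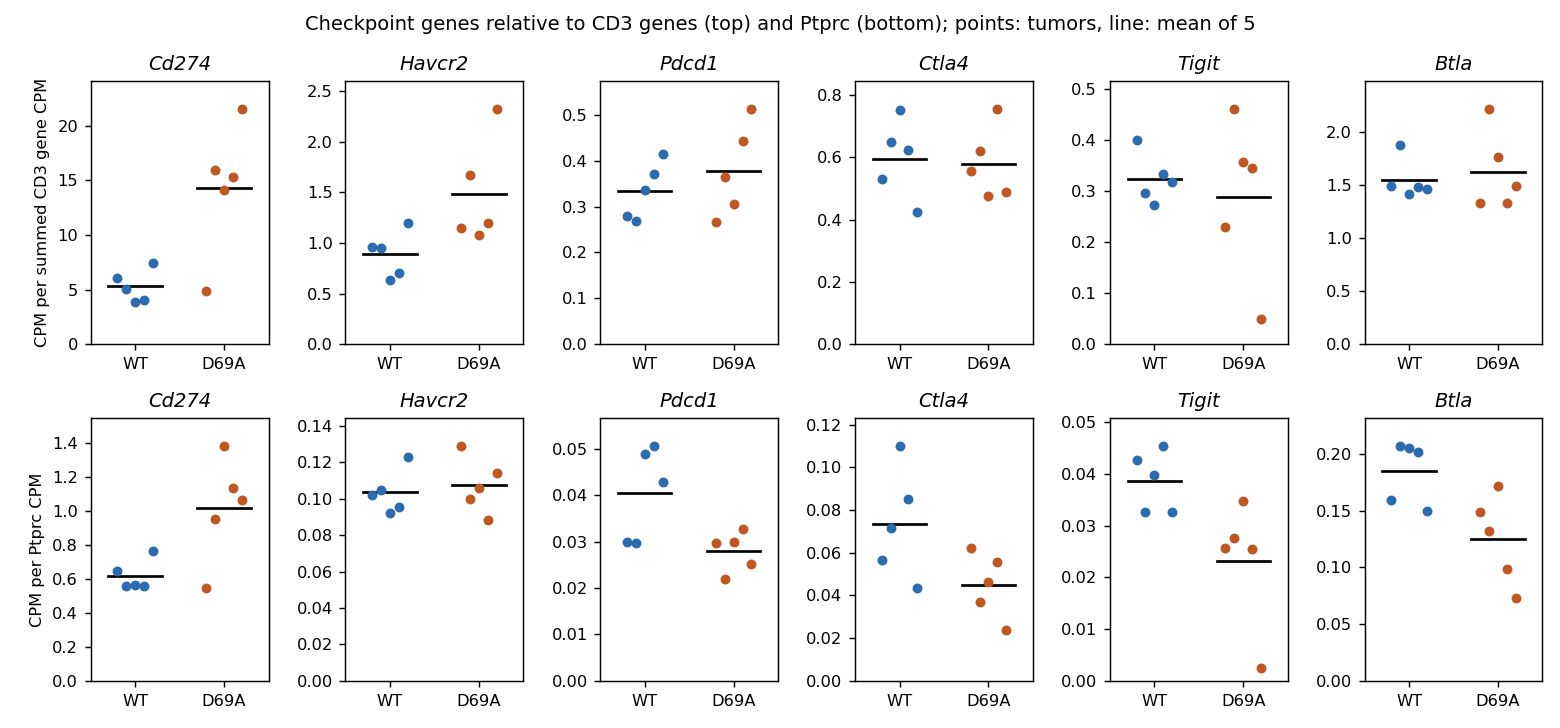
Ratio of CPM of 6 checkpoint genes to the summed CPM of Cd3d, Cd3e and Cd3g (top row, y axis) and to the CPM of Ptprc (bottom row, y axis), with tumors as points (WT blue, D69A orange) and group means as lines. Per CD3 gene CPM, Cd274 lies above the WT range in 4 of the 5 D69A tumors, while Ctla4 and Pdcd1 overlap between groups.

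Ptprc encodes CD45, the surface phosphatase of all leukocytes, and fell by 2.23 on the log2 scale. Relative to Ptprc, Tigit and Btla were lower in D69A tumors by the exact test only. Their log2 differences were -0.88 and -0.59 (exact permutation p = 0.0317 each, adjusted p = 0.0364 over all tested genes). With 86.5% of tested genes called higher on this scale, adjustment over all genes barely changed p. It gives little protection for 9 genes compared on 2 scales. Tigit stood at 0.0326 to 0.0454 CPM per CPM of Ptprc in WT and at 0.0257, 0.0276, 0.0348, 0.0255 and 0.0024 in D69A tumors 1 to 5. Without D69A tumor 5, the low one, its difference was -0.36 (adjusted p = 0.0634, exact permutation), and the call was also lost without any 1 of the WT tumors, with adjusted p up to 0.141. For Btla the call held in 3 of the 10 tests that left out 1 tumor, with adjusted p up to 0.0985 in the others. By edgeR's fit none of the 9 was called on this scale, with adjusted p of 0.101 for Tigit, 0.129 for Btla, 0.0731 for Ctla4 and 0.0742 for Cd274. Cd274 was not called by the exact test on this scale, with a log2 difference of 0.66 (exact permutation p = 0.0476, adjusted p = 0.054 over all tested genes). Pdcd1, Pdcd1lg2, Ctla4, Lag3 and Cd160 had negative differences from -0.39 to -0.64 that did not pass. Havcr2 followed Ptprc most closely, at 0.0924 to 0.123 CPM per CPM of Ptprc in WT and 0.0886 to 0.129 in D69A tumors (log2 difference 0.07, exact permutation p = 0.548, and a 95% interval from -0.61 to 0.72 in edgeR's fit). Over all tested genes the exact test called 86.5% higher and 1.17% lower per Ptprc CPM, and edgeR's fit 85.5% and 0.717% (86.2% in either direction).

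Ratios between checkpoint genes or with a competing receptor gene were compared for 6 pairs on the log2 CPM scale with a prior count of 2. The log2 ratio of Pdcd1 to Cd274 was -4.4, -4.22, -3.51, -3.45 and -4.14 in WT tumors 2 to 6 and -4.14, -5.32, -5.39, -5.02 and -5.26 in D69A tumors 1 to 5. Apart from D69A tumor 1, every D69A tumor lay below the WT range. The difference was -1.08 (exact permutation p = 0.0317), which did not pass after adjustment over the 6 pairs (adjusted p = 0.0952). Pdcd1lg2 to Cd274 gave the same picture, with -4.14 ± 0.297 in WT and -5.21 ± 0.663 in D69A tumors (mean ± SD of 5 tumors, two-sided exact permutation p = 0.0159, adjusted p = 0.0952). Without D69A tumor 1 both pairs passed, with differences of -1.3 and -1.28 (adjusted p = 0.0238 by exact permutation for each), and both passed with a prior count of 0.5. Without D69A tumor 4, Pdcd1lg2 to Cd274 passed as well (-1.13, adjusted p = 0.0476 by exact permutation).

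Tigit to Cd226 had a difference of -0.85 (exact permutation p = 0.0476, adjusted p = 0.0952), which went to -0.27 without D69A tumor 5 and passed without D69A tumor 4 (-1.07, adjusted p = 0.0476 by exact permutation). Cd226, the activating competitor of TIGIT, fell 5.09-fold. Ctla4 to Cd28 did not differ detectably, at 0.95 ± 0.419 in WT and 1.07 ± 0.613 in D69A tumors (mean ± SD of 5 tumors, two-sided exact permutation p = 0.706). Cd28, which encodes the main costimulatory receptor of T cells, fell 8.01-fold. Lag3 to Pdcd1 (difference 0.03) and Havcr2 to Pdcd1 (0.49) did not pass either, with exact permutation p of 0.944 and 0.0952.

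**Figure D4:**
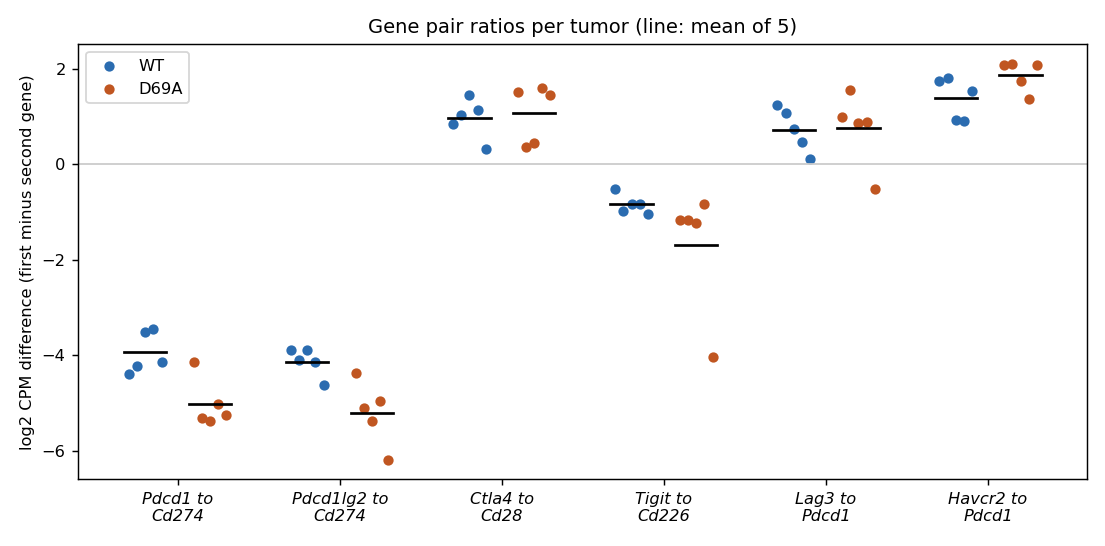
Log2 CPM difference between the genes of each of 6 pairs (y axis) per tumor, WT in blue and D69A in orange, with group means as lines. For Pdcd1 to Cd274 and Pdcd1lg2 to Cd274, 4 of the 5 D69A tumors lie below all WT tumors, and for Tigit to Cd226 D69A tumor 5 stands alone at -4.04.

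The counterparts of the checkpoint receptors in T cell activation fell with them. All 9 tested costimulatory genes of 10 listed were lower, with a median log2 fold change of -2.54, and Cd40lg was too low to be tested. Cd27, Cd226, Tnfrsf9 (4-1BB) and Cd28 had the smallest p, with decreases of 5.81-fold, 5.09-fold, 4.48-fold and 8.01-fold. Of 13 other inhibitory receptor and ligand genes, Vtcn1 was not analysed here and all 12 others fell, with a median of -1.85. For both lists the share called lower over all tested genes was 24.7%. Cd276, which encodes the ligand B7-H3, fell 2.52-fold, Cd244a, an NK cell receptor of the SLAM family, 5.09-fold, and the inhibitory receptor genes Cd200r1 and Klrg1 3.32-fold and 6.23-fold. Cd47 and Sirpa, the signal and receptor that restrain phagocytosis, fell by less, 1.94-fold and 1.85-fold.

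Partners that bind the checkpoint receptors fell in part. Of 12 tested genes of 14 listed (Fgl1 and Clec4g were too low), 6 fell, 1 rose and 5 did not pass, with a median of -0.57. The shares over all tested genes were 24.7% lower and 18.8% higher. Cd86 and Cd80, the ligands shared by CTLA-4 and CD28, fell 6.28-fold and 2.98-fold. Cd86 went from 32.5 ± 17.0 to 5.17 ± 2.37 CPM and Cd80 from 11.4 ± 3.58 to 3.81 ± 1.02 CPM (SD, n = 5 each). Tnfrsf14, the gene of HVEM, fell 4.43-fold and Tnfsf14 3.89-fold, and the TIM-3 ligand gene Lgals9 fell 1.99-fold from 196.0 ± 18.3 CPM. Lgals3, which encodes a LAG-3 ligand, fell 1.58-fold.

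The TIGIT ligand genes did not follow their receptor. Pvr, which encodes the poliovirus receptor CD155, averaged 91.5 ± 25.8 CPM in the WT group against 77.2 ± 8.12 CPM in the other (log2 fold change -0.24, adjusted p = 0.248 by edgeR). Nectin2 stood at 40.6 ± 3.63 and 42.5 ± 2.51 CPM (adjusted p = 0.495, edgeR). Nectin3 was the one gene of the list that rose, from 20.5 ± 2.61 to 34.7 ± 2.53 CPM (1.7-fold, adjusted p = 0.000472 by edgeR). Ceacam1, Hmgb1 and Rgmb did not pass, with log2 fold changes of -0.47, 0.17 and 0.12.

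Of 9 genes of inhibitory signalling, 5 fell and Bag6 rose, against 24.7% lower and 18.8% higher over all tested genes. Ptpn22, Inpp5d, Dgka and Ptpn6, which encode phosphatases and a lipid kinase that restrain lymphocyte signals, fell 5.36-fold, 4.4-fold, 3.42-fold and 2.16-fold, and the ubiquitin ligase gene Cblb 1.77-fold. Ptpn11, Csk and Dgkz, which most cell types express, had log2 fold changes of 0.18, -0.06 and -0.13 and did not pass. Bag6, whose product binds the tail of TIM-3 and is made widely, rose 1.17-fold. The median was -0.82.

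Most transcription factor genes linked to exhaustion fell. Of 11 tested of 12 listed (Tox2 was too low), 8 fell, Nr4a3 rose and Nr4a1 and Irf4 did not pass, with a median of -0.56. The shares over all tested genes were 24.7% lower and 18.8% higher. Tbx21 (T-bet) and Eomes, the lineage factors of effector T cells and NK cells, fell 7.7-fold and 4.64-fold, Prdm1 2.78-fold and Nfatc1 1.45-fold. Tox, the factor most closely tied to the exhausted state, went from 2.33 ± 0.689 to 0.393 ± 0.443 CPM (SD, n = 5 each, 5.84-fold lower). Nr4a3 rose 1.55-fold, from 264.0 ± 26.3 to 408.0 ± 120.0 CPM, and Nr4a1 stood at 73.6 ± 17.8 and 85.6 ± 7.27 CPM. Irf4 stood at 12.3 ± 3.6 and 17.3 ± 3.57 CPM (adjusted p = 0.074, edgeR). The CD3 genes summed to only 1.11 to 5.83 CPM in D69A tumors. Which cells held the Nr4a3, Nr4a1 and Irf4 transcripts was not tested, so these levels do not describe T cells alone.

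Genes that act on PD-L1 expression or protein stability fell in part. The list holds inducers, stabilizers and genes whose products promote PD-L1 degradation (Hip1r, Spop and Stub1). Of 13 tested, 6 fell, Cmtm4 rose and 6 did not pass, with a median of -0.33. The shares over all tested genes were 24.7% lower and 18.8% higher. Irf1, an interferon-gamma effector that acts on Cd274, fell 3.31-fold, Ifng fell 5.54-fold from 2.08 ± 0.853 CPM, and the receptor chain gene Ifngr1 and the kinase gene Jak2 fell 1.82-fold and 1.74-fold. Cmtm6, whose product keeps PD-L1 at the cell surface, fell 1.66-fold, from 64.6 ± 16.1 to 38.8 ± 1.86 CPM, and its relative Cmtm4 rose 1.28-fold. Ifngr2, Jak1, Stat3, Hip1r, Spop and Stub1 did not pass, with log2 fold changes from -0.33 to 0.0037.

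**Figure D5:**
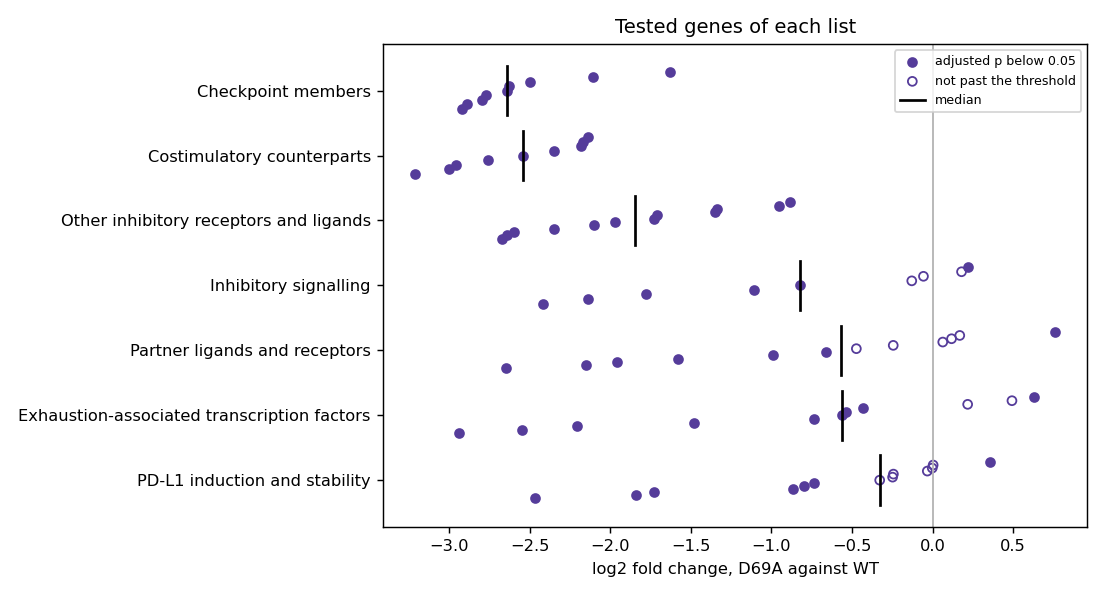
Log2 fold change of D69A against WT (x axis) for each tested gene of the checkpoint set and 6 companion lists, filled where the adjusted p was below 0.05, with the list median as a black line. The checkpoint genes (median -2.64) and costimulatory genes (median -2.54) lie furthest to the left, and the partner, signalling, transcription factor and PD-L1 lists reach above 0.

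Among all tested genes with a mean of at least 1 CPM, those nearest in profile were named by the root mean square difference of log2 CPM, centered on the gene's mean, over the 10 tumors. Most of this measure rests on the difference between groups. Pdcd1 was nearest to Cd8b1, a chain of the CD8 coreceptor (difference 0.178), then Il15ra and Samd3. Ctla4 was nearest to Cd3g (0.29), Cd247 and Cd6. Lag3 was nearest to Klrc1 (0.228), Pdcd1lg2 and Slco5a1, and Tigit to Klra3 (0.389), Cd28 and Lag3. Btla was nearest to Slco5a1 (0.172), Jaml and Cd24a, and Cd160 to Tbx21 (0.415), Tox and Klra4.

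Cd274 was nearest to Ctso (0.13), Nostrin and Tmem140, with log2 fold changes of -1.53, -1.68 and -1.43. Pdcd1lg2 was nearest to Klrc1 (0.148), also the nearest gene of Lag3, then to Ltb and Tnfsf10, and Havcr2 to Tbc1d9 (0.142), Camk1d and Ebi3. Within the checkpoint set the closest pair was Pdcd1lg2 and Lag3 (0.28) and the most distant Cd274 and Tigit (1.15).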

How the data were processed

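Bulk RNA from 10 tumors was sequenced. The authors deposited whole-number read counts per Ensembl gene. Tools named in the submitters' processing notes are fastp, HISAT, Bowtie and RSEM, with build mm10, without roles or versions. Annotation, counting rule and use of strand were not stated, and since RSEM estimates counts, rounding of estimates is possible.

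Symbols and coordinates came from GENCODE mouse release M21 (17670 identifiers matched, 67 not). Within groups, the smallest chi-square per degree of freedom between tumors was 13.9, so none was treated as a duplicate. Genes were filtered with filterByExpr, scaled by TMM and compared with the quasi-likelihood test of edgeR 4.0.16 in R 4.3.3, and SEs were derived from its F statistic. A count of 3 corresponded to 0.0798 to 0.116 CPM per tumor by total counts without TMM, whereas the other CPM values include it. Such floors cover counting error only.

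For ratios to CD3 genes and Ptprc, edgeR was fitted with their counts as offsets. Exact permutation tests over the 252 splits (smallest p 0.00794) were added after seeing the data. Alternatives were DESeq2 1.42.0, limma-voom (limma 3.58.1), other scalings, filters and thresholds, the replicate block and leaving out tumors. The scripts were tested on simulated data. The members and lists were chosen with earlier results of these data known. Genes named are the 9 members, the pair genes, up to 4 genes per list with the smallest p, genes not passing or opposing the list's majority, and the 3 nearest profiles per member. Tnfrsf14, Tnfsf14, Lgals3, Cblb, Ifng, Jak2, Cmtm6, Cd47 and Sirpa lie outside this rule, and their selection followed inspection of the values. Some genes of the lists are not reported here by name.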

Additional observations from a re-analysis of the deposited data

Results flagged for a closer look

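A tumor was singled out where it lay apart from the rest of its group by more than a set share (Dixon's criterion) of the whole range. This held in 6 of 66 sets of 5 values (9.09%), and chance gives about 1 in 20 for independent values, which these are not. D69A tumor 1 stood above its group in Pdcd1 (1.55 CPM against 0.541 to 0.799) and Havcr2 (6.71 CPM against 1.92 to 2.92). D69A tumor 5 stood below its group in the log2 ratio of Tigit to Cd226 (-4.04 against -1.24 to -0.836), in Tigit per Ptprc CPM (0.0024 against 0.0255 to 0.0348) and in Lag3 per Ptprc CPM (0.0168 against 0.0564 to 0.0684). WT tumor 3 stood above its group in Btla per CD3 gene CPM (1.87 against 1.41 to 1.49).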

How the results depend on the processing

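The 9 decreases kept their direction and call in all 197 values, 1 per gene and alternative, over 22 alternatives. The alternative at an adjusted p of 0.01 reused the main fit. With 1 CPM required in 5 tumors, Cd160 was not tested and 8 were called. Leaving out 1 tumor moved log2 fold changes between -3.52 and -1.47. Higher genes of inhibitory signalling numbered 2, not 1, with DESeq2, RLE scaling, no low count filter, the replicate block (4 shared numbers, 8 tumors) and those 8 tumors without it, and 0 after dropping the 3 muscle-rich tumors (WT 3, WT 4 and D69A 1), against a fold of 1.5 and at an adjusted p of 0.01. Exhaustion-associated factors had 2 higher with DESeq2 and in the 8 tumors unblocked, and 0 against a fold of 1.5 and at 0.01, with 5 lower without those 3 tumors, 4 against the fold and 5 at 0.01. Against a fold of 1.5, 3 PD-L1 genes were lower, and 0 of these or of the partner genes higher. List counts at these other settings are given without the share over all tested genes, so they describe the lists only. With 1 tumor left out, higher counts of the signalling and the factor list ranged from 1 to 2. Relative to CD3 genes, 1 member was higher, 2 by the exact test, and 0 when scaled to all T cell markers (Cd274 0.92, adjusted p = 0.05). Relative to Ptprc, 0 were lower, 2 by the exact test, and 0 to 1 lower and 0 to 1 higher with 1 tumor left out in edgeR. With a prior count of 0.5 the ratios of Pdcd1 and Pdcd1lg2 to Cd274 were each -1.15 and Tigit to Cd226 -1.01 (adjusted p = 0.0476 by exact permutation). With 1 tumor left out they ranged from -1.3 to -0.958, -1.28 to -0.825 and -1.07 to -0.265. As paired differences over the replicate block they were -1.35, -1.4 and -1.03, where 4 pairs cannot go below p = 0.125 by exact sign flip. The labels state no pairing, and numbers were not taken as pairs in the main test. Same-number correlations were 0.177, -0.417, 0.203 and 0.167, and 1 of 4 numbers was its own best match. The block changed no member's call.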
